A study of Bos taurus with 27 samples.

Results

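The comparison described here set ileum RNA of calves fed their colostrum at 6 h after birth against that of calves fed it immediately after birth, written 0 h. Its members were chosen by the feeding time in the sample titles, and they are 18 of the 27 calves of the series, 9 in each group. All were male Holstein calves, assigned to their feeding time at random, and the ileum, the last stretch of the small intestine, was taken at 51 h of age. Every calf in the series received colostrum, including the 9 calves of a group fed at 12 h, so no group shows the ileum without colostrum. Each library came from a separate calf, and the spread within a group is therefore a spread between animals.

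Colostrum is the first milk of the cow. It carries the maternal antibodies that a calf does not receive across the placenta, together with nutrients, hormones and growth factors. The epithelium of the newborn small intestine takes up whole antibodies for a short time after birth and then closes to them, which is why the time of the first feed matters in calf rearing. The ileum also holds a continuous Peyer's patch, an organ where B cells multiply in early life, and it is the site of bile acid uptake.

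Rows of the count table are 24616 Ensembl cattle identifiers. The files do not pair them with gene names, and 0 matched a symbol in the reference table. Genes are therefore referred to by identifier, without position or function, and markers of the ileum or of its cell types could not be checked. In RNA from whole tissue, fewer cells of a type and less RNA per cell cannot be told apart.

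The libraries of calves fed at 0 h held 1152690 to 3234226 counts and those of calves fed at 6 h 972578 to 2262714. The mean totals, 1925900 ± 749317 and 1400240 ± 401816 counts (SD, n = 9), had a difference that did not pass an exact permutation test over the 18 calves (two-sided p = 0.081, adjusted p = 0.27 over 6 measures of whole libraries). None of the other 5 measures passed it, with adjusted p from 0.27 to 0.994 in exact permutation tests. Each calf's profile was also set against the mean of the other 8 calves of its group. The correlation of log2 CPM (CPM, a count relative to the library total) was 0.965 ± 0.00807 at 0 h and 0.959 ± 0.00963 at 6 h (SD, n = 9, exact permutation p = 0.174). The difference of -0.00597 shrank to -0.00181 at equal depth (exact permutation p = 0.548), and it ran from -0.00841 to -0.00379 without single calves.

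No gene was called higher or lower in calves fed at 6 h than in calves fed at 0 h. The quasi-likelihood test of edgeR, run on 11429 genes, called 0, which is 0% of those tested, with every adjusted p at 1. Neither DESeq2, which tested 22939 genes, nor limma voom called any gene. Without adjustment, 381 genes had an edgeR p under 0.05 (3.33% of those tested). Of these, 205 were higher at 6 h (1.79%) and 176 lower (1.54%), and 571 is the nominal number. At that level DESeq2 listed 537 of 22939 genes and limma voom 529 of 11429. Under an unadjusted p of 0.001 edgeR listed 6 genes, where 11.4 is nominal. Without replicate 2 of the 6 h group the genes listed as lower went from 176 to 274.

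The estimates were small and evenly split between the directions. Of the 11429 genes, 5697 were estimated higher at 6 h and 5732 lower. An estimate over 1.2-fold was seen for 593 genes higher and 576 lower. Over 1.5-fold it was seen for 45 higher and 38 lower, and over 2-fold for 3 higher and 2 lower. The log2 fold change lay within 0.34 in either direction for 95% of the genes.

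**Figure D1:**
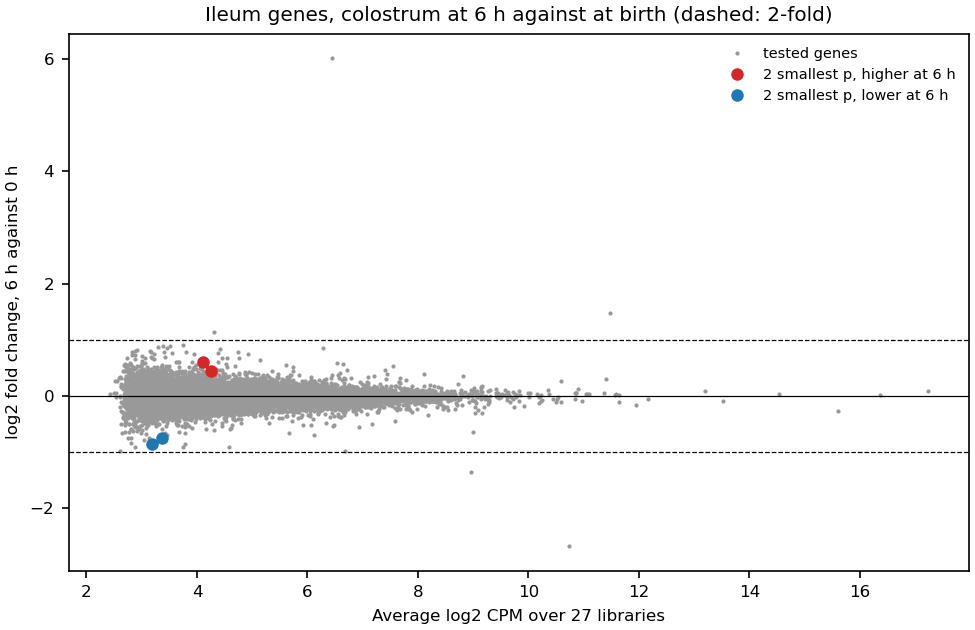
Log2 fold change of calves fed at 6 h against calves fed at 0 h (vertical axis) by average log2 CPM over 27 libraries (horizontal axis) for the 11429 genes tested, with the 2 genes of smallest p in each direction in colour and dashed lines at 2-fold. Most estimates narrow around 0 as abundance rises, while 4 of the 5 genes outside the dashed lines are in the highest of 4 abundance classes.

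How large a difference the data leave room for depended on abundance. The genes were divided into 4 classes of about 2857 genes by mean abundance. In the lowest class, with a median of 15.1 counts per library, the median standard error of the log2 fold change was 0.222, and the 95% confidence interval stayed inside 1.5-fold both ways in 44.5% of the genes. That share rose to 83.7% in the second class, at a median of 32.2 counts, and to 94.3% in the third, at 64.4 counts. It was 94.8% in the highest class, at 169 counts and a median standard error of 0.0958. Within 2-fold the shares were 93.5%, 98.1%, 99.3% and 98.7%. Differences of 1.5-fold were thus within the error of most genes in the lowest class, and differences of 2-fold within that of few genes in any class.

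In each class the median absolute estimate was smaller than the median standard error, at 0.14 against 0.222 in the lowest class and 0.06 against 0.0958 in the highest. Genes at an unadjusted p under 0.05 made up 3.71% of the lowest class, 3.54% of the second, 3.15% of the third and 2.94% of the highest. The directions of these genes shifted with abundance. In the lowest class 66 were higher at 6 h and 40 lower, and in the highest class 33 were higher and 51 lower. Library totals averaged lower at 6 h, and their part in that shift was not tested.

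**Figure D2:**
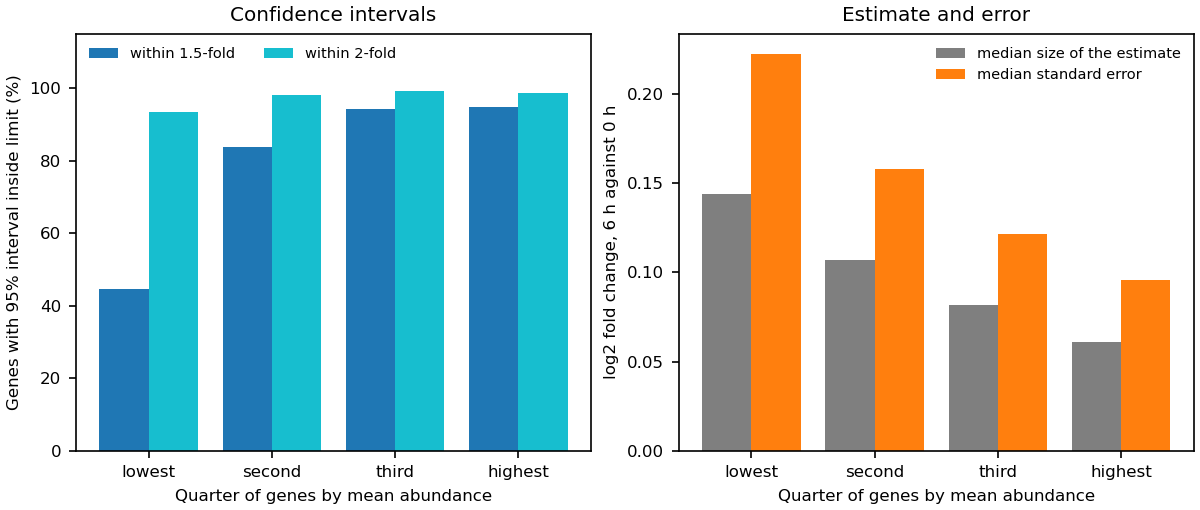
Share of genes whose 95% confidence interval for 6 h against 0 h lies within 1.5-fold or 2-fold (left, percent), and the median absolute log2 fold change beside the median standard error (right), in 4 classes of genes by mean abundance. The share within 1.5-fold is 44.5% in the lowest class and 94.8% in the highest, and the standard error exceeds the estimate in each class.

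The genes with the smallest p in each direction are described next, since no gene passed the adjustment. Their estimates and confidence intervals take no account of this choice. Values are normalised CPM, levels scaled by TMM library totals, and they are not divided by gene length.

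ENSBTAG00000005205 ran from 11.5 to 18.5 with a median of 16.2 in calves fed at 0 h, and from 17.9 to 24.9 with a median of 22.5 in calves fed at 6 h. Every calf of the 0 h group lay below 8 of the 9 calves of the 6 h group, and the groups overlapped in the remaining calf. The means were 15.8 ± 2.29 and 21.7 ± 2.47 (SD, n = 9), which gives a log2 fold change of 0.44 (SE 0.111, with an unadjusted p of 0.000465 and an adjusted p = 1 in edgeR), or 1.36-fold with a 95% confidence interval of 1.16 to 1.59. Between 13 and 59 counts per library stood behind the values at 0 h and 18 to 51 behind those at 6 h. The calves fed at 12 h, from 14.9 to 19.1 with a median of 16.7, lay in the range of the calves fed at 0 h or just above it.

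ENSBTAG00000008951 ran from 9.09 to 15.5 with a median of 12.9 at 0 h and from 15.4 to 24.1 with a median of 18.9 at 6 h. A calf fed at 6 h was the higher in 80 of the 81 pairs that can be formed across the groups, more than for any other gene tested. The log2 fold change was 0.60 (SE 0.162, unadjusted p = 0.000685 and adjusted p = 1 in edgeR), with a confidence interval of 1.21-fold to 1.90-fold. At 12 h the gene covered both ranges, from 8.78 to 25.5 with a median of 17.3.

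ENSBTAG00000002516 was the gene with the smallest p of all. It ran from 8.79 to 16.3 with a median of 11.3 at 0 h and from 2.1 to 10.1 with a median of 6.60 at 6 h. The 9 calves fed at 6 h were all below the median of the calves fed at 0 h, and 7 lay below all of them. The log2 fold change was -0.76 (SE 0.193, unadjusted p = 0.000345 and adjusted p = 1 in edgeR). Counts were low, at 11 to 36 per library at 0 h and 2 to 15 at 6 h. The median at 12 h lay between, at 8.79.

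ENSBTAG00000021568 ran from 6.00 to 15.1 with a median of 10.7 at 0 h and from 4.40 to 9.45 with a median of 5.95 at 6 h. All 9 calves fed at 6 h lay below the median at 0 h, and 5 lay below every calf fed at 0 h. The log2 fold change was -0.87 (SE 0.247, unadjusted p = 0.00116 and adjusted p = 1 in edgeR), on 7 to 43 counts per library at 0 h and 6 to 12 at 6 h. At 12 h the median was 6.87, and 8 of the 9 calves lay below the median at 0 h.

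In each of these 4 genes the 12 h group lay between the others by mean and by median, close to 0 h in ENSBTAG00000005205 and closer to 6 h in ENSBTAG00000008951 and ENSBTAG00000021568. The genes were chosen for a difference between 6 h and 0 h, so this order is a description only. Both comparisons with 0 h use the same 9 calves fed at 0 h, so their values are only set side by side. For ENSBTAG00000005205 the log2 fold change of 12 h against 0 h was 0.05 (SE 0.107), and for ENSBTAG00000008951 it was 0.42 (SE 0.153). For ENSBTAG00000002516 it was -0.33 (SE 0.168) and for ENSBTAG00000021568 -0.67 (SE 0.218). Between 12 h and 6 h no difference passed edgeR's adjustment for these genes, with the smallest adjusted p, 0.889, at ENSBTAG00000005205.

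**Figure D3:**
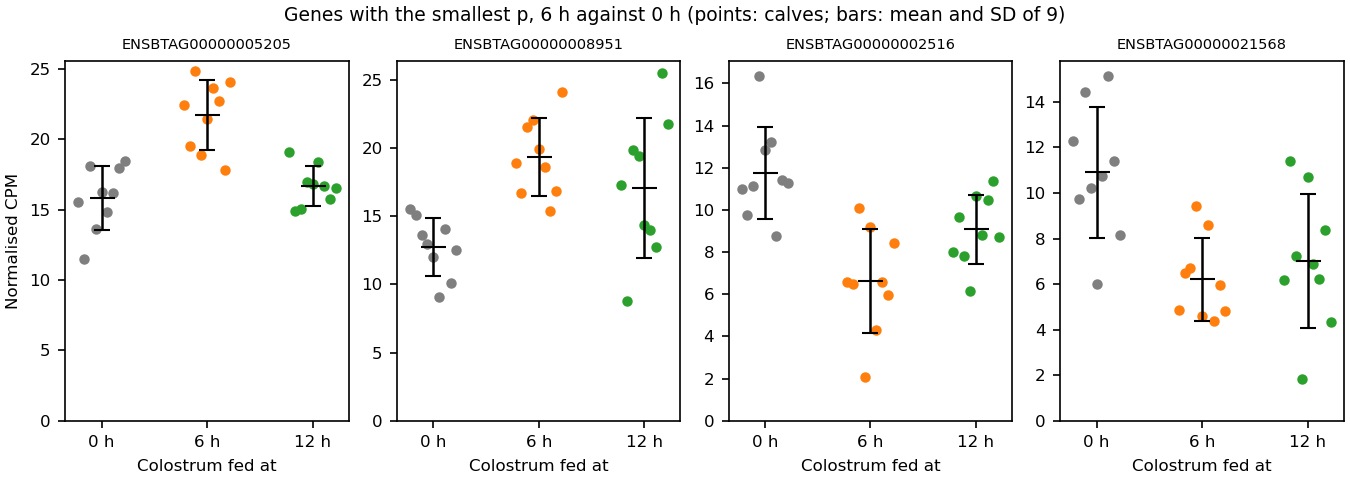
Normalised CPM by feeding time of the 2 genes with the smallest p among those higher at 6 h (left panels) and among those lower (right panels); each point is a calf, with the mean and SD of 9 as bars. The groups fed at 0 h and 6 h overlap in each panel, by 1 calf of the 6 h group in ENSBTAG00000005205 and ENSBTAG00000008951.

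No gene separated the groups completely. Over all 11429 genes, 0 (0%) had the 9 values of a group entirely above the 9 of the other. The count of pairs with the calf fed at 6 h higher reached 80 of 81 in 1 gene, and with that calf lower 78 of 81 in 1 gene, ENSBTAG00000002516.

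The 5 genes with an estimate over 2-fold (0.0437% of those tested) varied widely within both groups. In 3 of them a single calf held over 50% of the summed CPM of the group with the higher mean. Of the 5, 4 lay in the highest abundance class. They are named here after their values were seen. Their number ran from 6 to 15 when a calf was left out and the filter asked for 8 libraries. ENSBTAG00000047370 had the largest estimate, 6.02 on the log2 scale (SE 1.63, unadjusted p = 0.00115 and adjusted p = 1 in edgeR). Its level was 0 to 25.6 CPM at 0 h with a median of 0, and 0 to 2322 at 6 h with a median of 2.87. Replicate 2 of the 6 h group held 98.6% of that group's sum, the next calf stood at 13.0, and without replicate 2 the log2 fold change was 0.15.

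ENSBTAG00000047154 lay above 1000 CPM in 4 of 9 calves fed at 6 h and in 2 of 9 fed at 0 h, with medians of 149 and 44.6. The 4 highest calves at 6 h formed a set of their own, since no calf of that group lay between 149 and 9921. The estimate was 1.48 on the log2 scale (SE 1.70, unadjusted p = 0.392 and adjusted p = 1 in edgeR), with the largest unadjusted p of the 5 genes. Of the 5 genes it alone kept an estimate over 2-fold in each of the 18 fits that left out a calf, with a range of 1.15 to 4.0. In the 12 h group 2 calves lay above 1000 CPM.

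ENSBTAG00000031814 ran from 4.77 to 38.7 CPM with a median of 9.06 at 0 h and from 8.07 to 82.1 with a median of 17.9 at 6 h, a log2 estimate of 1.13 (SE 0.523, unadjusted p = 0.0411 and adjusted p = 1 in edgeR). It was 0.76 without replicate 5 of the 6 h group. The next highest calves of that group stood at 44.0 and 40.9.

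The 2 genes estimated lower were driven from the other side. ENSBTAG00000047042 reached 35157 CPM in replicate 4 of the 0 h group, where that calf held 90.2% of the sum, against medians of 51.8 at 0 h and 11 at 6 h. Its log2 estimate was -2.69 (SE 1.70, unadjusted p = 0.127 and adjusted p = 1 in edgeR) and turned to 0.50 without that calf. ENSBTAG00000045632 reached 5607 CPM in replicate 5 of the 0 h group. The log2 estimate of this gene was -1.36 (SE 1.39, unadjusted p = 0.337 and adjusted p = 1 in edgeR), and -0.18 without that calf. Its median was higher at 6 h, 227 against 167, so that median and mean differ in direction.

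**Figure D4:**
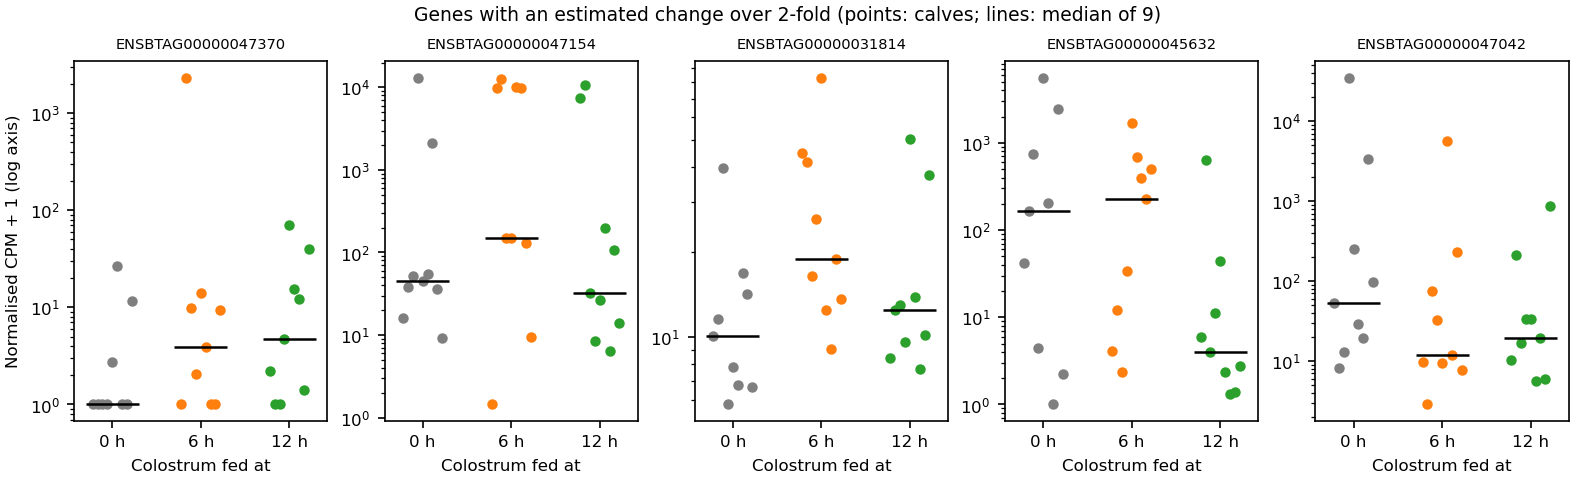
Normalised CPM plus 1, on a log axis, by feeding time of the 5 genes with an estimated difference over 2-fold between 6 h and 0 h; each point is a calf, with the median of 9 as a line. Single calves lie far above the others, such as 2322 CPM in ENSBTAG00000047370 at 6 h and 35157 CPM in ENSBTAG00000047042 at 0 h.

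The calves of the groups were also compared for how much they differed among themselves. The standard deviation of log2 CPM between calves had a median over genes of 0.282 at 0 h and 0.314 at 6 h, and it was higher at 6 h for 59.7% of the genes. When all libraries were thinned to 972578 counts, the medians were 0.302 and 0.311, and the share was 52.9%. The difference between the groups' medians was thus smaller at equal depth, where 10257 genes passed the filter instead of 11429. By class of abundance the share at equal depth was 50% in the lowest and 50.8% in the second. It was 55.7% in the third and 54.0% in the highest, against 61.2% and 59.4% as deposited.

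By gene, limma on the absolute deviations from the group mean called 4 genes (0.0350% of 11429) wider at 6 h and 0 narrower. At an unadjusted p under 0.05 it listed 889 genes (7.78%), 662 wider at 6 h and 227 narrower, where 571 is nominal. On simulated data this test called more false genes than its threshold allows. With deviations from the group median limma called 0 genes and listed 414 at an unadjusted p under 0.05, below the nominal number. At equal depth, with deviations from the mean, it also called 0 among 10257 genes, which included 3 of the 4. There 384 were wider and 301 narrower at an unadjusted p under 0.05. The 4 calls were lost without any of replicates 1, 3, 4 or 5 of the 0 h group. Only 1 was left without replicate 6, 7 or 8 of the 0 h group or replicate 7 or 8 of the 6 h group, and 2 without replicate 4 of the 6 h group.

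These 4 genes, named after their values were seen, had tightly grouped calves at 0 h and scattered ones at 6 h. ENSBTAG00000003766 ran from 10.3 to 12.2 CPM at 0 h and from 1.98 to 16.9 at 6 h, with medians of 11 and 11.4 (limma adjusted p = 0.0261 for the spread). ENSBTAG00000003644 ran from 11.5 to 16.0 and from 2.98 to 17.8 (limma adjusted p = 0.0261). ENSBTAG00000016060 ran from 4.83 to 7.43 and from 2.1 to 13.0 (limma adjusted p = 0.0261).

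ENSBTAG00000015374 ran from 21.3 to 27.8 at 0 h and from 9.03 to 38.1 at 6 h (limma adjusted p = 0.0305). The levels of the 4 genes did not pass edgeR's test, with log2 fold changes from -0.32 to 0.21 and an adjusted p of 1 for each. Counting noise alone would give a chi-square of counts per degree of freedom of 1. At 0 h it was 0.0722 to 0.324 for these genes, below counting noise, and at 6 h it was 2.59 to 6.10. At equal depth the standard deviation of log2 CPM was still 0.184 at 0 h against 0.687 at 6 h for ENSBTAG00000003766 (limma adjusted p = 0.387). It was 0.234 against 0.674 for ENSBTAG00000015374 (limma adjusted p = 0.51) and 0.216 against 0.607 for ENSBTAG00000003644 (limma adjusted p = 0.689). ENSBTAG00000016060 was not among the genes tested there. The 4 genes were called for their spread in these same calves, so their chi-squares and standard deviations are a description and give no further support. Over all genes in the counts as deposited, the median chi-square was 1.91 at 0 h and 1.78 at 6 h. The share of genes below 1 was 17.0% at 0 h and 19.3% at 6 h.

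**Figure D5:**
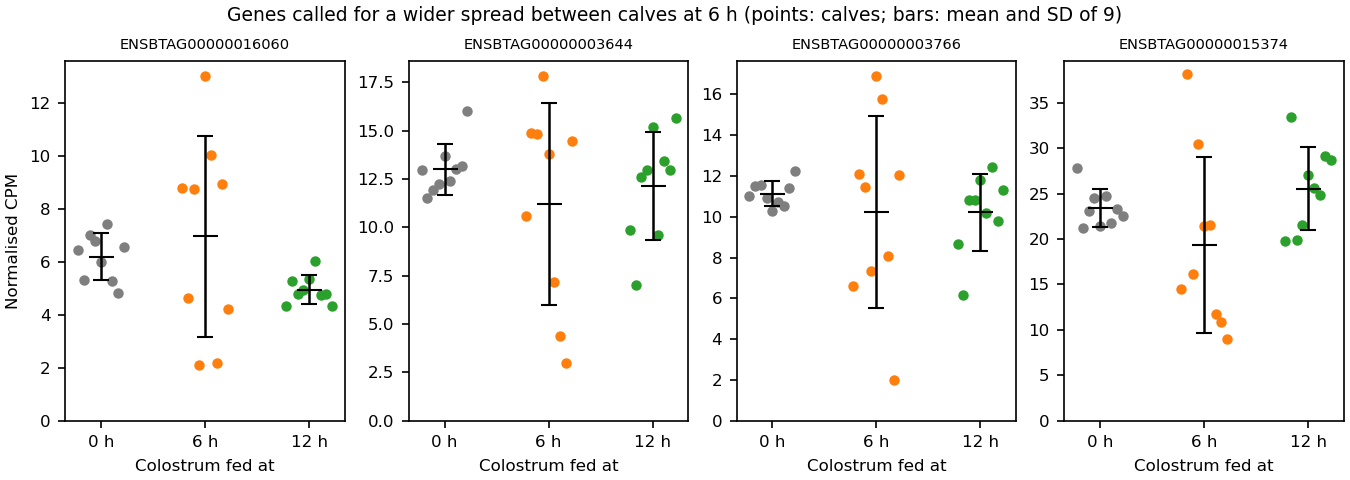
Normalised CPM by feeding time of the 4 genes called for a wider spread between calves at 6 h than at 0 h; each point is a calf, with the mean and SD of 9 as bars. Calves fed at 0 h lie close together, such as 10.3 to 12.2 CPM in ENSBTAG00000003766, while calves fed at 6 h run from 1.98 to 16.9.

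Single calves differed in how far they departed from their group. The number of tested genes lying over 2-fold from the median of the other 8 calves ran from 105 to 468 at 0 h, with a median of 233. At 6 h it ran from 180 to 636, with a median of 300, and the highest value belonged to replicate 2. At equal depth the ranges were 261 to 385 at 0 h and 241 to 540 at 6 h, with medians of 285 and 298. Replicate 2 of the 6 h group was again the highest.

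Below the filter on low counts lay 13187 genes, which held 0.949% to 1.52% of the counts of a library. Of these, 2515 had no count in any of the 18 calves and 8199 had a count in both groups. A count in the 0 h group alone was found for 1153 genes, 783 of them in 1 calf, and in the 6 h group alone for 1320, 871 of them in 1 calf. No gene had a count in all 9 calves of one group and in none of the other. The most calves with a count in a gene unseen in the other group were 6 at 0 h and 5 at 6 h.

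Which group showed more of these scarce genes depended on depth. In the counts as deposited, 3898 genes had a count in more calves fed at 0 h and 3589 in more calves fed at 6 h. At equal depth the direction turned, with 2885 in more calves fed at 0 h and 4519 in more calves fed at 6 h. Counting all genes of a library as deposited, 16410 ± 861 had a count at 0 h and 16319 ± 749 at 6 h (SD, n = 9, exact permutation p = 0.813). At equal depth the numbers were 15370 ± 383 and 15730 ± 513 (SD, n = 9). That difference did not pass an exact permutation test (p = 0.112, adjusted p = 0.27). The lowest, median and highest calves at equal depth were 15022, 15312 and 16261 at 0 h and 15175, 15692 and 16606 at 6 h. The groups thus overlapped over most of their range.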

How the data were processed

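The TruSeq RNA kit, version 2, per the labels' protocols, keeps no strand information, so counts of a gene can include reads of an antisense partner. The deposited table holds unnormalised gene counts, 1 column per calf, and the 27 columns were matched to calves by name. TopHat2 2.1.1, TopHat, SAMtools 1.4, HTSeq and the build UMD3.1 appear in the submitters' processing notes. Not given in the sources used here are their roles, the annotation release and the handling of multiply matched reads.

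A robust quasi-likelihood model of edgeR 4.0.16 (R 4.3.3) was fitted on all 27 libraries, the 3 groups sharing the spread per gene. filterByExpr kept genes with a minimum count of 10 and a total of 15, equal to 6.28 CPM in 9 libraries. Totals were scaled by TMM and p-values adjusted by Benjamini-Hochberg at 0.05. Log2 CPM had a prior count of 2. Spread between calves was tested with limma 3.58.1 on absolute deviations from the group mean. Whole-library measures were set against each other by exact permutation (two-sided), with 4.11e-05 as the smallest p it can give. The level test was also run on simulated data with known changes of several sizes. Its recovery at each size is not given here, so a lack of calls does not exclude small changes. The spread test called more false genes there than its threshold allows, and its version with deviations from the median, added after seeing the data, did not. No 2 of the 18 libraries matched within counting noise (smallest chi-square per gene 2.04).

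Named genes are the 2 with the smallest p in each direction. The 26 gene lists prepared for pathways, cell types and RNA quality gave no value, since no identifier has a symbol. The comparison, lists and tests were chosen with earlier results of these data known. Alternatives included DESeq2 1.42.0, limma voom and sva 3.50.0.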

Additional observations from a re-analysis of the deposited data

Results flagged for a closer look

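A calf standing apart was looked for in 38 sets of 9 calves, each set being a measure or gene within 0 h or 6 h. The gap between the extreme calf and its neighbour was large against the whole range in 12 sets. For sets chosen without regard to their values chance would mark about 1 in 20, but 26 of the 38 sets belong to genes picked for a small p, a large estimate or a wide spread, for which that rate does not apply. Of the 12, 9 came from the 5 genes with an estimate over 2-fold.

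Replicate 3 of the 0 h group showed 16261 genes with a count at equal depth, and the second highest calf 15602. Replicate 7 of that group gave 30.1% of its counts to its 10 most abundant genes, below the 33.6% of its neighbour. Replicate 9 of that group had 16.0 CPM of ENSBTAG00000003644, followed by 13.7.

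For ENSBTAG00000031814 the calves were replicate 3 of the 0 h group, with 38.7 CPM, and replicate 5 of the 6 h group, with 82.1. For ENSBTAG00000045632 they were replicate 5 of the 0 h group, with 5607 CPM, and replicate 5 of the 6 h group, with 1700. For ENSBTAG00000047042 they were replicate 4 of the 0 h group, with 35157 CPM, and replicate 6 of the 6 h group, with 5661. ENSBTAG00000047154 reached 13137 CPM in replicate 4 of the 0 h group. ENSBTAG00000047370 reached 25.6 CPM in replicate 6 of the 0 h group and 2322 in replicate 2 of the 6 h group.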

How the results depend on the processing

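The count of 0 genes called held in each of 13 alternatives and without each of the 18 calves, with a smallest adjusted p of 0.0671 (2 surrogate variables). The 4 named genes kept their direction in the 12 alternatives that refit them and without each calf, with adjusted p from 0.516 to 1. They were chosen for a small p in these same calves, so the kept direction gives no further support. With the replicate number as a block 0 genes were called and 338 listed at an unadjusted p under 0.05. Same-numbered calves mostly did not deviate together (correlation over 0.1 in 2 of 9 pairs, and 1 of 18 calves best with its own number). These values show no pairing by number and cannot exclude one. The 381 genes at an unadjusted p under 0.05 became 1054 without a filter on low counts (673 higher and 381 lower, among 22939 genes). With surrogate variables they became 594 (331 lower). At that level 342 of 22939 genes were higher in DESeq2 and 266 of 11429 lower in limma voom. Genes estimated over 2-fold went from 5 of 11429 to 3281 of 22939 without a filter and 1809 of 22939 in DESeq2. They were 177 of 14983 with a filter of 1 CPM and 19 of 11429 in limma voom. Except in limma voom, these counts include genes too scarce for the main filter. Leaving out a calf, which lowers the filter to 8 libraries, gave 6 to 15 genes estimated over 2-fold. Genes at an unadjusted p under 0.05 were then 296 to 567, with 134 to 274 lower. Genes called for spread went from 4 to 0 at equal depth, where 3 of the 4 were tested, and to 0 with deviations from the median, and ran from 0 to 4 without single calves. The difference in genes with a count, in the counts as deposited, changed sign without single calves (-270.8 to 116.4). That in the share of the 10 most abundant genes did too (-0.584 to 0.25 percentage points). At equal depth the difference in genes with a count kept its sign (250 to 470.9). Unless stated, the cause was not tested. The median standard error was largest in the lowest abundance class; the effect of depth by class was not tested.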
